A study of Mus musculus with 10 samples.

Results

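The transcripts described here belong to glycolysis and to the response to low oxygen. The list holds 35 genes, each represented by its brightest probe set over all arrays, and 32 of them had a probe set that named only that gene. Gpi1 and Eno1 had no probe set listed for them in the annotation used, and the probe sets of Bnip3l also listed Bnip3l-ps, so these 3 genes were not measured. Of the 32 genes with a value, 28 passed a filter on mean signal and were tested among 11405 genes, out of 18194 named on the array. Slc16a3, Adm, Car9 and P4ha2 lay below that filter and are given as values only.

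Glycolysis splits glucose into pyruvate, and lactate dehydrogenase turns pyruvate into lactate where it does not enter the mitochondrion. When oxygen is scarce, the prolyl hydroxylases encoded by the Egln genes stop marking the alpha subunits of hypoxia inducible factor (HIF) for breakdown, and HIF then raises glucose transporters, most glycolytic enzymes, the mitophagy receptor Bnip3 and the vessel growth factor Vegfa. Granule cell precursors of the neonatal cerebellum are known for lactate production while they divide, and Hk2 is a known target of sonic hedgehog (Shh), their main mitogen.

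Primary cerebellar granule cell precursors were cultured from P5-7 mice, wild type or Bmi1 knockout (Bmi-1-/-), with P7 given as the age in the culture notes. Bmi1 encodes a subunit of the Polycomb repressive complex PRC1. All cultures were grown for 24 hours in high-glucose medium with 10% serum and 20 mM KCl, and the treated ones received Shh for 24 hours at a concentration labelled 3 mg/ml, whose unit is given here as labelled. There were 3 untreated arrays of wild type (replicates 1, 3 and 5), 3 untreated arrays of knockout (replicates 2, 4 and 6), 2 of wild type with Shh (replicates 7 and 9) and 2 of knockout with Shh (replicates 8 and 10). By its title, the study asks what Bmi1 contributes when Shh shifts expression levels. The sources used here do not give the strain, the number of animals in a culture, the part of Bmi1 that is deleted, or how long untreated and treated cultures were each grown in all, so that Shh and time in culture cannot be told apart. The cultures are called biological replicates, and the p-values below measure only the spread between these arrays. A treatment note of replicate 3 mentions Shh where applicable, but it is titled as untreated and was used so.

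Signals are array intensities on a linear scale, set on every array to a trimmed mean of 500. The median signal was 84.8 to 91.2 on the untreated and 66.8 to 72.3 on the Shh arrays. The probe set of Bmi1 read 3416 to 4515 over all arrays and was 0.849-fold in knockout against wild type (limma, adjusted p = 0.186), and since the deleted part is not given it does not check the genotype. Cdkn2a, which PRC1 represses, read 24.0 to 41.6 on the wild type and 271 to 451 on the knockout arrays. Gli1 and Ptch1, direct targets of Shh signalling, differed with Shh by 1.05 and 0.98 on the log2 scale in wild type and by 0.57 and 0.92 in knockout, all past the threshold. The granule lineage markers Atoh1 and Pax6 read 1431 to 2256 and 5371 to 6706. Markers of other cell types were also present, and most of these fell with Shh in both genotypes, as given beside the results they move with.

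The promoters of some members are shown first, picked because they carry the motif of the oxygen response. Of these, Bnip3 and Ankrd37 had their lowest signals in knockout with Shh, and Ldha, Pgk1 and Hk2 rose in wild type with Shh. Each sequence is the stretch of 250 bases before a transcription start, from RefSeq on GRCm38.p6, in the direction of the gene. Capitals mark ACGTG or GCGTG, the core that HIF binds, or its reverse complement, where a match on 1 strand can overlap a match on the other, as in CACGTG.

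Bnip3, chr7:138909507-138909756, minus strand: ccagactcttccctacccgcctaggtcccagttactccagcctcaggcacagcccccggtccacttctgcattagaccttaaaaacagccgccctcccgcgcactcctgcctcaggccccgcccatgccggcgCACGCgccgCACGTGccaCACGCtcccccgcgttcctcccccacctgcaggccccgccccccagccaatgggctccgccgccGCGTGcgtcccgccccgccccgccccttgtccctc
Ankrd37, chr8:45999851-46000100, minus strand: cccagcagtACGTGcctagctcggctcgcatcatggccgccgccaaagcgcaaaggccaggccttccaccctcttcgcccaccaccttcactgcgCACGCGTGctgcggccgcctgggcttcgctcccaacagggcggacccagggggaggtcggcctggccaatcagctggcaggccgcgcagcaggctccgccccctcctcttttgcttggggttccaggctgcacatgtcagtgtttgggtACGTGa
Ldha, chr7:46845554-46845803, plus strand: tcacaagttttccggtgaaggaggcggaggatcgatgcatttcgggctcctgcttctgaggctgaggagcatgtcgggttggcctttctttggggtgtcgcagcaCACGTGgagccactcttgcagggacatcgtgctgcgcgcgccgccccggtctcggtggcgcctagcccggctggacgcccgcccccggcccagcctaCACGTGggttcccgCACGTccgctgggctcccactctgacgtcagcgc
Pgk1, chrX:106186850-106187099, plus strand: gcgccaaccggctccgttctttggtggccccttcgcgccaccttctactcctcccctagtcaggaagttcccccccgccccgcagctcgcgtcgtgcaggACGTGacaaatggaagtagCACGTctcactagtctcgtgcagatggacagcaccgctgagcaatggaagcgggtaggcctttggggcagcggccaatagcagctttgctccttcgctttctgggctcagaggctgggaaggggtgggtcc
Hk2, chr6:82774455-82774704, minus strand: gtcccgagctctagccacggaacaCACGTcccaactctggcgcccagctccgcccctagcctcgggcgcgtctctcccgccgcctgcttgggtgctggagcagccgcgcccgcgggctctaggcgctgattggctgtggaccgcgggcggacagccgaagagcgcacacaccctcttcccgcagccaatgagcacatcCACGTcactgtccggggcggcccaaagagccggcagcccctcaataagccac

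The windows shown of Bnip3 and Ldha held 5 matches each, that of Ankrd37 held 4, and those of Pgk1 and Hk2 held 2 each. Another window of Ldha, not shown, held 1. Of 46 promoter windows of 32 members, 37 (80.4%) held at least 1 match, against 38.6% of all 32851 windows of this length and 56.4% of the 12004 windows of tested genes. The median GC content was 60.4% in windows of members, 60.4% in those of tested genes and 52.4% in all. With ACGTG alone, the shares were 47.8% of member windows, 16.6% of all and 21.6% of tested genes. The members were listed for being known targets, so this share describes the list, and a match is no evidence of binding. Pfkl, also lowest in knockout with Shh, held 1 match, which was not ACGTG. Slc2a1, which fell with Shh, held 2. Slc2a3, Bnip3l and Ndrg1 had no window in the table used.

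With Shh, the members did not move as 1 block, in either genotype. In wild type, 12 of 28 members passed the threshold of an adjusted p of 0.05 (limma, Benjamini-Hochberg over all tested genes), where 33.8% of all tested genes did. Among them 7 rose, where 14% of all genes rose. These were the hexokinase Hk2, the enzymes Aldoa, Pgk1, Pgam1 and Pkm, the lactate dehydrogenase Ldha and the collagen prolyl hydroxylase P4ha1. Another 5 fell, where 19.8% of all genes fell, namely the glucose transporter Slc2a1, the enzymes Aldoc, Eno2 and Pfkp, and the regulator Pfkfb3. The median difference over the 28 members was 0.03 on the log2 scale, against -0.01 over all tested genes. At an unadjusted p under 0.05 there were 16 members, where 44.3% of all genes had one. In 11 members both Shh arrays lay above all untreated ones (27.3% of all genes) and in 11 below (31.2%).

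In knockout, 11 of 28 members passed with Shh, where 28% of all genes did. Hk2 alone rose, where 11% of all genes rose. The other 10 fell, where 17% of all genes fell, and these were Slc2a1, Aldoc, Pfkl, Pfkp, Eno2, Pfkfb3, Pdk1, Bnip3, Egln1 and Ankrd37. The median over the 28 members was -0.26, against -0.01 over all tested genes. An unadjusted p under 0.05 was found for 17 members, where 39.8% of all genes had one. In 4 members both Shh arrays lay above all untreated ones (26.1% of all genes) and in 14 below (29.5%). The difference in response between the genotypes was tested on its own, and 0 of 28 members passed, where 0.00877% of all genes did; it is given gene by gene below. The plot of all members by array shows these shifts against the untreated wild type.

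**Figure D1:**
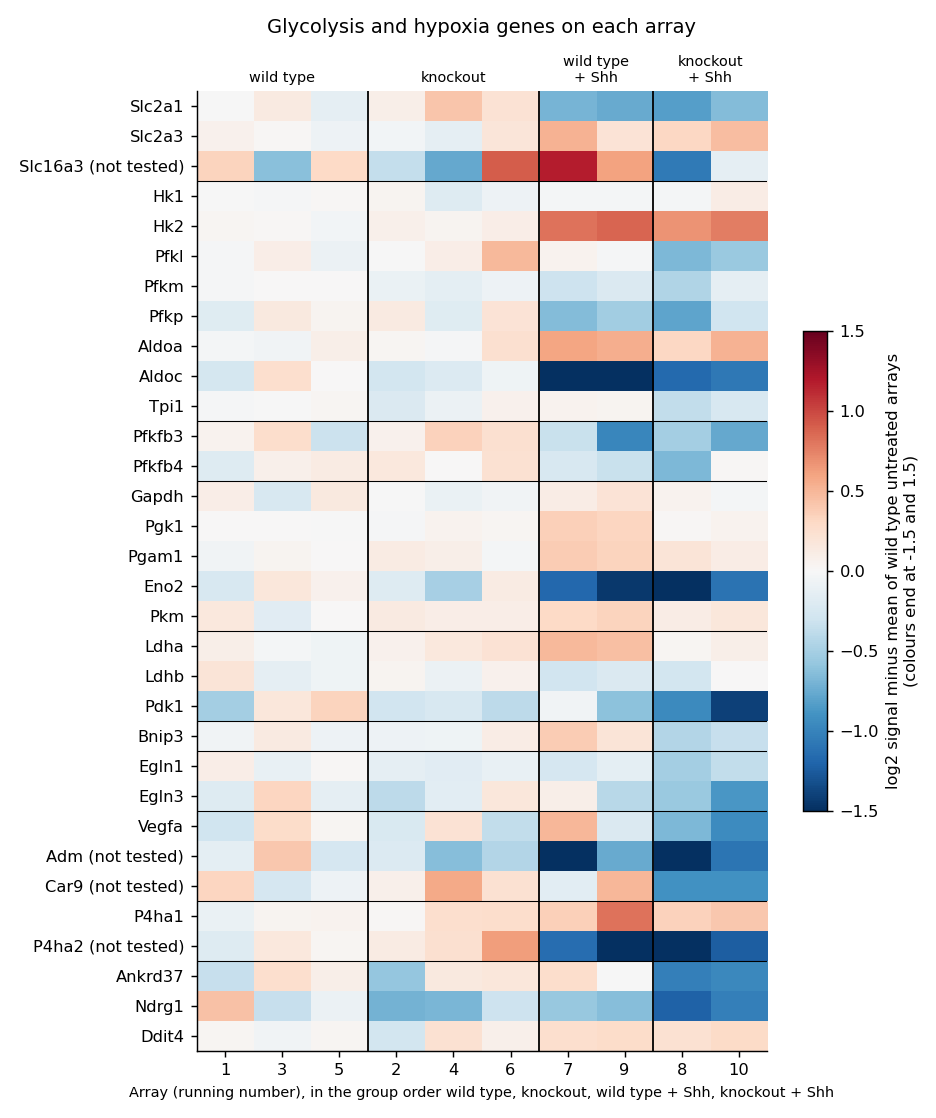
Colour shows the log2 signal of each of the 32 measured members (rows, grouped by role) on each of the 10 arrays (columns, by replicate number), minus the mean of the 3 untreated wild type arrays, with signals below the floor of 20.9 raised to it. Hk2 is red on all 4 Shh arrays, Slc2a1, Aldoc and Eno2 are blue on all 4, and Bnip3, Pfkl and Ankrd37 have their lowest signals on the 2 knockout Shh arrays.

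Among the transporters, Slc2a1 encodes GLUT1, the glucose transporter of most dividing cells and of brain capillaries. Slc2a1 read 1378, 1516 and 1262 in untreated wild type, 1472, 1845 and 1608 in untreated knockout, 852 and 821 in wild type with Shh, and 779.6 and 878 in knockout with Shh. All 4 Shh arrays lay below all 6 untreated ones. Slc2a1 fell with Shh by 0.72 on the log2 scale in wild type (SE 0.13, limma adjusted p = 0.00234) and by 0.98 in knockout (SE 0.13, limma adjusted p = 0.000631). Its 2 dimmer probe sets gave differences of -0.78 and -0.46 in wild type and -1.13 and -0.86 in knockout. Slc2a1 is also abundant in endothelium, and of the tested endothelial and pericyte markers 8 of 8 fell in wild type and 7 of 8 in knockout. The summed signal of the 10 markers on that list was 6891 to 8104 in untreated wild type, 7104 to 8801 in untreated knockout, 500.2 to 576 in wild type with Shh and 610.2 to 612 in knockout with Shh. Pecam1 lay at the floor on all Shh arrays, and Flt1 on both knockout Shh arrays. Per the culture protocol, meninges and vessels had been removed before the tissue was dissociated. The part of these cells in the fall of Slc2a1 was not tested, and in bulk cultures fewer cells of a type and less RNA per cell cannot be told apart.

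Slc2a3 encodes GLUT3, the main glucose transporter of neurons. It read 1955, 1896 and 1783 in untreated wild type, 1819, 1704 and 2120.0 in untreated knockout, 2698 and 2156 in wild type with Shh and 2324 and 2586 in knockout with Shh. All 4 Shh arrays were above all untreated ones. The difference was 0.36 (SE 0.13) in wild type and 0.39 (SE 0.13) in knockout, which missed the threshold in each genotype (limma adjusted p = 0.0631 and 0.0563), and Slc2a3 rose by 0.37 over both genotypes (SE 0.09, limma adjusted p = 0.00951). With array medians set equal, Slc2a3 passed in each genotype (limma adjusted p = 0.0465 and 0.0453). Its probe set is of a kind shared by several transcripts. Slc16a3, the lactate exporter MCT4, read 88.2, 45.1 and 85.6 in untreated wild type, 54.4, 41.0 and 131 in untreated knockout, 158 and 106 in wild type with Shh and 33.4 and 63.8 in knockout with Shh, and was not tested. Its groups overlapped without Shh.

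In the hexose phase, 2 of the 8 tested enzymes rose and 2 fell in wild type, where 14% and 19.8% of all genes did. In knockout 1 rose and 3 fell, where 11% and 17% of all genes did. Hk2, the inducible hexokinase that commits glucose to the pathway, read 2014, 1998 and 1922 in untreated wild type, 2086, 2041 and 2126 in untreated knockout, 3463 and 3636 in wild type with Shh and 3147 and 3374 in knockout with Shh. Every Shh array lay above every untreated one. Hk2 rose 1.79-fold in wild type (log2 0.84, SE 0.08, limma adjusted p = 0.000124) and 1.56-fold in knockout (log2 0.64, SE 0.08, limma adjusted p = 0.000701). The constitutive Hk1 differed with Shh by -0.03 in wild type (95% interval -0.25 to 0.19) and 0.11 in knockout (-0.11 to 0.33), neither past the threshold. Hk3, a hexokinase outside the list that is best known from myeloid cells, rose by 1.80 and 1.27.

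Phosphofructokinase, the step that sets the pace of glycolysis, has 3 subunit genes, and their values differed. The liver subunit gene Pfkl read 1363, 1485 and 1304 in untreated wild type, 1381, 1484 and 1936 in untreated knockout, 1432 and 1364 in wild type with Shh, and 866 and 938 in knockout with Shh. The knockout Shh arrays lay below all 8 others. Pfkl fell by 0.81 in knockout (SE 0.14, limma adjusted p = 0.00322), its difference in wild type was 0.02 (95% interval -0.31 to 0.34), and the difference between the genotypes, -0.83 (-1.29 to -0.37), did not pass (adjusted p = 0.676). Of its dimmer probe sets, 1 above the filter gave -0.01 in wild type and -0.67 in knockout, and 1 below the filter gave 0.67 and 0.40. Averaging all probe sets of Pfkl raised the adjusted p of the fall to 0.0966, the highest among its alternatives.

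The platelet subunit gene Pfkp read 767, 969.7 and 896 in untreated wild type, 959, 768 and 1003 in untreated knockout, 555 and 607 in wild type with Shh and 504 and 711 in knockout with Shh. All Shh arrays were below all untreated ones. Pfkp fell by 0.59 in wild type (SE 0.18, limma adjusted p = 0.0299) and by 0.59 in knockout (SE 0.18, limma adjusted p = 0.0339). Its 2 dimmer probe sets gave -0.57 and -0.10 in wild type and 0.05 and 0.12 in knockout, and the adjusted p reached 0.145 and 0.262 without single arrays (3, 5, 7 or 9 in wild type, 2, 6 or 8 in knockout) and 0.16 and 0.662 under other settings, among them the mean of all probe sets. The muscle subunit gene Pfkm read 2538 to 2827 on the untreated and 2062 to 2553 on the Shh arrays, so that the ranges overlapped through 1 knockout Shh array. Pfkm missed the threshold in each genotype (-0.26 and -0.19) and fell by 0.23 over both (limma adjusted p = 0.0327, and 0.0564 with consecutive arrays as pairs, and up to 0.133 without single arrays).

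The aldolases went opposite ways. Aldoa, the aldolase of muscle and most dividing cells, read 5636, 5542 and 6141 in untreated wild type, 5873, 5676 and 6818 in untreated knockout, 8672 and 8403 in wild type with Shh and 7137 and 8273 in knockout with Shh. All Shh arrays were above all untreated ones, and the wild type pair above the knockout pair. Aldoa rose by 0.57 in wild type (SE 0.11, limma adjusted p = 0.00501), and its difference of 0.33 in knockout (SE 0.11) missed the threshold (limma adjusted p = 0.0571). The knockout difference passed under some other settings. Among them were equal array medians (limma adjusted p = 0.0476), the mean of all probe sets (0.04) and leaving out replicate 6 (0.0335). All 5 of its probe sets, each able to bind related transcripts, gave 0.36 to 0.69 in wild type and 0.30 to 0.45 in knockout.

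Aldoc, the aldolase of astrocytes and Purkinje cells, read 4661, 6636 and 5615 in untreated wild type, 4619.8, 4825 and 5326 in untreated knockout, 1757 and 1711 in wild type with Shh and 2496 and 2662 in knockout with Shh. The Shh arrays were all below the untreated ones, and the wild type pair was the lowest. Aldoc fell 3.22-fold in wild type (log2 -1.69, SE 0.14, limma adjusted p = 4.9e-05) and 1.91-fold in knockout (log2 -0.93, SE 0.14, limma adjusted p = 0.0016). Its dimmer probe set, just above the filter, gave -2.26 and -2.01. Of 10 astrocyte and Bergmann glia markers, 8 fell in both genotypes, and 1, Gfap, rose in knockout (0.54). Their summed signal was 51862 to 66153 in untreated wild type, 57244 to 60195 in untreated knockout, 21730.2 to 23463 in wild type with Shh and 27286 to 30902 in knockout with Shh, with no marker at the floor on all arrays of a group. Purkinje cell markers fell in 5 of 5 in both genotypes, from a sum of 20973 to 45881 untreated to 6719 to 8909 with Shh. The part of these cells in the fall of Aldoc was not tested. Tpi1, which interconverts the triose phosphates, read 8195 to 8413, 7097 to 8641, 8533 to 8603 and 6393 to 7003 in the same group order and passed in no comparison.

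Pfkfb3 and Pfkfb4 make and remove fructose 2,6-bisphosphate, the activator of phosphofructokinase. Pfkfb3 read 255, 294 and 196 in untreated wild type, 256, 310.1 and 289 in untreated knockout, 194 and 124 in wild type with Shh and 172 and 144 in knockout with Shh. The Shh arrays were the lowest, although 194 and 196 nearly met. Pfkfb3 fell by 0.66 in wild type (SE 0.22, limma adjusted p = 0.0439) and by 0.85 in knockout (SE 0.22, limma adjusted p = 0.0187). The call in wild type was lost without any 1 of 8 arrays (all but 5 and 7, adjusted p up to 0.336, differences from -0.98 to -0.34) and under 6 of 11 other settings (up to 0.242), and that in knockout without replicate 4 or 10 (up to 0.119) and under 3 of 11 other settings (up to 0.0647). The dimmer probe set gave 0.17 and -0.39. Pfkfb4 read 244 to 328 on the untreated and 175 to 284 on the Shh arrays, which overlap, and fell by 0.37 over both genotypes (limma adjusted p = 0.0471, 0.098 with consecutive arrays as pairs, and up to 0.16 without single arrays).

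In the triose phase, 3 of 5 tested enzymes rose in wild type and 0 in knockout, where 14% and 11% of all genes rose. Eno2 fell in both, where 19.8% and 17% of all genes fell. Pgk1, which makes the first ATP of the pathway, read 6767, 6744 and 6679 in untreated wild type, 6645, 6987 and 6886 in untreated knockout, 8590.1 and 8424 in wild type with Shh, and 6805 and 6969 in knockout with Shh. The wild type Shh arrays stood above all 8 others, and the knockout Shh arrays lay within the range of the untreated ones. Pgk1 rose by 0.34 in wild type (SE 0.08, limma adjusted p = 0.0108, up to 0.0677 without replicate 7 or 9, and 0.175 with the mean of all probe sets). In knockout its difference was 0.01 (95% interval -0.17 to 0.19). The difference between the genotypes in this response was -0.33 (-0.58 to -0.07) and did not pass (adjusted p = 0.898).

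Pgam1, the mutase of the lower pathway, read 4426, 4697 and 4606 in untreated wild type, 4992, 4875 and 4483 in untreated knockout, 5945 and 5753 in wild type with Shh and 5229 and 4948 in knockout with Shh. Its wild type Shh arrays were again the highest. Pgam1 rose by 0.35 in wild type (SE 0.09, limma adjusted p = 0.0146, up to 0.0867 without replicate 7 or 9, and 0.0519 with quantile normalization), and its value in knockout was 0.09 (-0.11 to 0.29). Pkm, the pyruvate kinase gene of most tissues other than liver, read 8498, 6757 and 7618 in untreated wild type, 8357, 8133 and 8114 in untreated knockout, 9350.5 and 9555 in wild type with Shh and 8205 and 8525 in knockout with Shh. The wild type Shh arrays were above the rest, and the call was marginal: Pkm rose by 0.32 (SE 0.11, limma adjusted p = 0.0466), and the adjusted p reached 0.182 on leaving out single arrays, with only the removal of replicate 1 keeping the call. Gapdh, measured here through its control probe set, passed in no comparison, with 17033 to 22396 on the untreated and 19694 to 23288 on the Shh arrays.

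Eno2, the enolase of mature neurons, read 774, 1027 and 958 in untreated wild type, 796, 645 and 998 in untreated knockout, 403 and 334 in wild type with Shh and 289.7 and 422 in knockout with Shh. The Shh arrays did not overlap the untreated ones in either genotype. Eno2 fell by 1.31 in wild type (SE 0.22, limma adjusted p = 0.00208) and by 1.19 in knockout (SE 0.22, limma adjusted p = 0.00418). Granule neuron markers fell in 4 of 8 tested genes in wild type and in 2 of 8 in knockout, while their summed signal overlapped between conditions (46769 to 60017 untreated, 44611 to 49568 with Shh). Interneuron markers fell in 5 of 6 and 4 of 6, from sums of 3686 to 7408 untreated to 2146 to 3965 with Shh. The part of these cells in the fall of Eno2 was not tested.

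The plot of 9 members by group sets these patterns side by side.

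**Figure D2:**
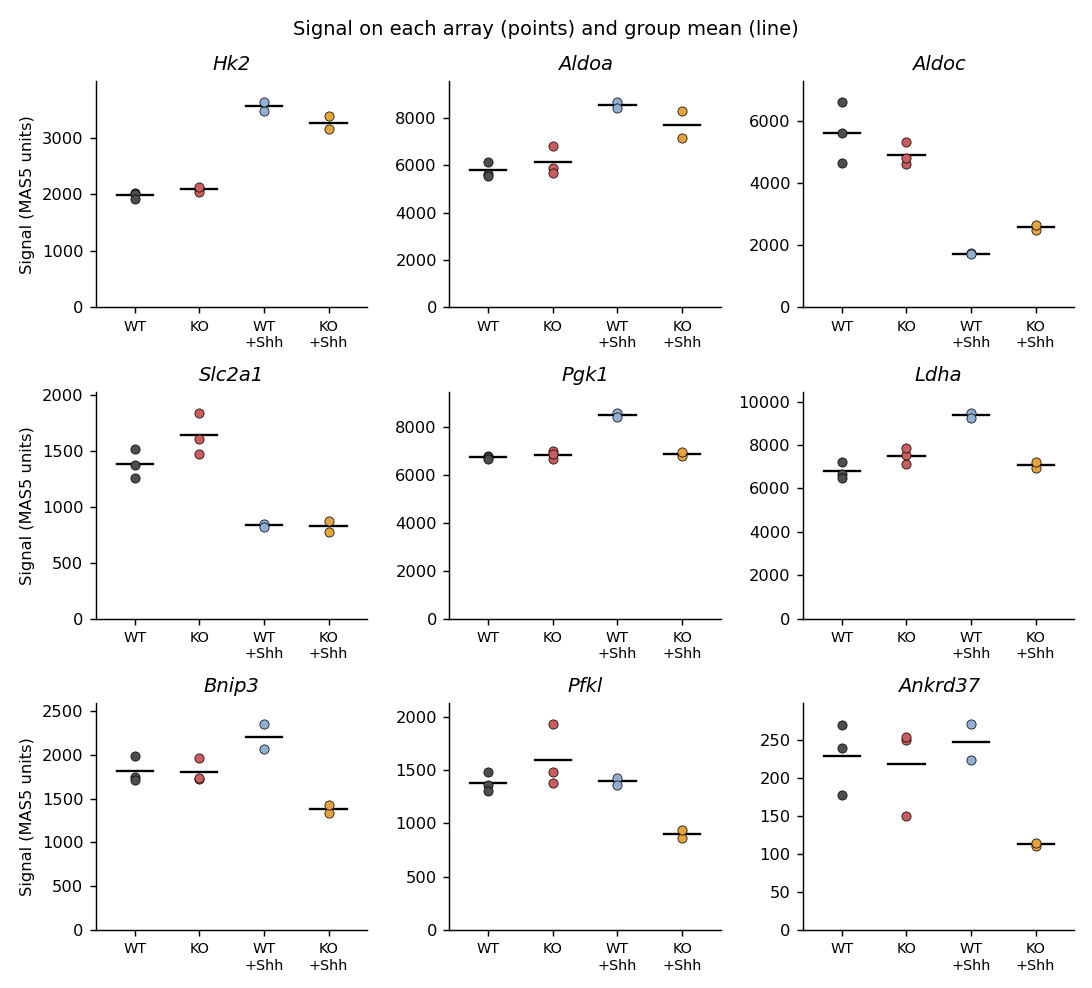
Each panel plots the signal of 1 gene (MAS5 units, linear axis from 0) on every array, with untreated wild type (WT), untreated knockout (KO) and the Shh groups along the horizontal axis; points are arrays and lines are group means. Hk2 and Aldoa are higher and Aldoc and Slc2a1 lower in both Shh groups, Pgk1 and Ldha stand out in wild type with Shh, and Bnip3, Pfkl and Ankrd37 are lowest in knockout with Shh.

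Of the 3 genes that decide the fate of pyruvate, 1 rose in wild type (Ldha), where 14% of all genes rose. In knockout 1 fell (Pdk1), where 17% of all genes fell. Ldha, the lactate dehydrogenase subunit that favours lactate, read 7199, 6662 and 6505 in untreated wild type, 7108, 7566 and 7857 in untreated knockout, 9492 and 9249.9 in wild type with Shh, and 6935 and 7226 in knockout with Shh. Both wild type Shh arrays exceeded all others, and the knockout Shh arrays lay among the untreated ones. Ldha rose by 0.47 in wild type (SE 0.09, limma adjusted p = 0.00427) and differed by -0.08 in knockout (95% interval -0.29 to 0.12). The gap between these responses was -0.55 (-0.84 to -0.26) with an adjusted p of 0.59, so it did not pass over all genes. Ldhb, the subunit of oxidative tissue, read 4773 to 5973 untreated and 4296 to 5267 with Shh and passed in no comparison.

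Pdk1, the kinase that shuts off pyruvate dehydrogenase, read 230.4, 371 and 416 in untreated wild type, 269, 278 and 251 in untreated knockout, 318 and 214 in wild type with Shh and 169.6 and 124 in knockout with Shh. Only the knockout Shh arrays lay apart from the others. Pdk1 fell by 0.87 in knockout (SE 0.26, limma adjusted p = 0.0349), a call that was lost without replicate 2, 4, 6, 8 or 10 (up to 0.212) and with quantile normalization or no filter (up to 0.0883), and its value in wild type was -0.33 (-0.92 to 0.26).

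Bnip3, the receptor that sends mitochondria to autophagy in low oxygen, read 1743, 1992 and 1717 in untreated wild type, 1725, 1739 and 1964 in untreated knockout, 2355 and 2065 in wild type with Shh, and 1337 and 1422 in knockout with Shh. The wild type Shh arrays were the highest and the knockout Shh arrays the lowest of the 10. Bnip3 fell with Shh by 0.39 in knockout (SE 0.11, limma adjusted p = 0.0301, up to 0.16 without replicate 4, 6, 8 or 10, and up to 0.0994 under other settings). In wild type the difference was 0.28 (SE 0.11) and missed the threshold (limma adjusted p = 0.0815). The difference between the genotypes in this response was -0.67 (-1.03 to -0.31), again not past the threshold (adjusted p = 0.59).

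Of the oxygen sensors, Egln1 (PHD2), the main HIF prolyl hydroxylase, read 3986, 3447 and 3768 in untreated wild type, 3391, 3322 and 3462 in untreated knockout, 3125 and 3363 in wild type with Shh and 2624 and 2880.3 in knockout with Shh. The knockout Shh arrays were the lowest. Egln1 fell by 0.30 in knockout (SE 0.10, limma adjusted p = 0.0462), which was lost without any 1 of 8 arrays (all but 1 and 3, up to 0.253) and with the mean of all probe sets (0.657), and its dimmer probe set gave 0.13. Its value in wild type was -0.20 (-0.42 to 0.02). Egln3 (PHD3), itself a HIF target, read 116 to 190.2 untreated, 161 and 114 in wild type with Shh and 103 and 82.9 in knockout with Shh, and passed in no comparison.

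Secreted and surface products of the hypoxia response were dim. Vegfa, which draws vessels towards hypoxic tissue, read 220.4, 328 and 276 in untreated wild type, 232, 314 and 210.2 in untreated knockout, 382 and 232 in wild type with Shh, and 169.7 and 141 in knockout with Shh. Its knockout Shh arrays lay below all others, and the difference with Shh in knockout was -0.68 (SE 0.25, limma adjusted p = 0.0752), short of the threshold. With the mean of all probe sets Vegfa just passed in knockout (-0.70, limma adjusted p = 0.0498). The dimmer probe set gave -0.72 in knockout, and -0.41 in wild type against 0.14 from the brightest. Adm, the vasodilator adrenomedullin, read 49.6 to 102 untreated and 14.4 to 45.5 with Shh, and Car9, a surface carbonic anhydrase, read 33.1 to 58.2 untreated, 35.1 and 55.6 in wild type with Shh and 11.2 and 7.94 in knockout with Shh. Both Car9 values in knockout with Shh lay under the floor of 20.9.

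The collagen prolyl hydroxylase subunits P4ha1 and P4ha2 modify collagen chains in the secretory pathway. P4ha1 read 324, 356 and 359.9 in untreated wild type, 351, 411 and 416 in untreated knockout, 444 and 608 in wild type with Shh and 439.5 and 458 in knockout with Shh. All Shh arrays exceeded all untreated ones. P4ha1 rose by 0.59 in wild type (SE 0.14, limma adjusted p = 0.0124, and 0.114 without replicate 9, the array at 608), and its value in knockout was 0.20 (-0.12 to 0.52). P4ha2 went the other way, with 51.6 to 90.9 untreated and 3.26 to 26.7 with Shh, and was not tested for its low mean. Without that filter P4ha2 passed at -1.32 in wild type and -1.70 in knockout, with values that the floor limits (adjusted p = 0.00431 and 0.00229). Fibroblast and meningeal markers, from cells that make collagen, fell in 5 of 7 and 6 of 7 tested genes, from sums of 4430.3 to 5898 untreated to 2076 to 2559 with Shh; their part in the values of P4ha2 was not tested.

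Ankrd37, an ankyrin repeat protein gene known mainly as a HIF target, read 177, 269 and 239 in untreated wild type, 149.8, 249.6 and 253 in untreated knockout, 271 and 224 in wild type with Shh, and 110.0 and 115 in knockout with Shh. The knockout Shh arrays lay below the other 8. Ankrd37 fell with Shh in knockout by 0.91 (SE 0.25, limma adjusted p = 0.0237, up to 0.112 without replicate 4, 6, 8 or 10, and up to 0.0918 under other settings), and its value in wild type was 0.13 (-0.43 to 0.69). The difference between these was -1.04 (-1.84 to -0.25) with an adjusted p of 0.84.

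Ndrg1, a stress-response gene induced by hypoxia and prominent in oligodendrocytes, read 845, 493 and 586 in untreated wild type, 383, 389.8 and 503 in untreated knockout, 421 and 402 in wild type with Shh and 271 and 308 in knockout with Shh. Replicate 1 was the highest of all, and the knockout Shh arrays the lowest. Ndrg1 missed the threshold in each genotype (-0.60 and -0.55, limma adjusted p = 0.0555 and 0.0873) and fell by 0.57 over both (SE 0.15, limma adjusted p = 0.0119). With the mean of all probe sets, Ndrg1 passed in each genotype (limma adjusted p = 0.00932 and 0.00376). Oligodendrocyte lineage markers fell in 6 of 8 tested genes in wild type and 5 of 8 in knockout, while Pdgfra, a marker of their precursors, rose in both (0.62 and 0.47). Cspg4, also on this list, fell in wild type (-0.78), and its mean in knockout was 228 untreated and 234 with Shh. The sum of the list was 27023 to 36222 untreated, 12280 to 13106 in wild type with Shh and 14197 to 17936 in knockout with Shh, with Mog at the floor on both knockout Shh arrays. The part of these cells in the fall of Ndrg1 was not tested. Ddit4 (REDD1), which restrains mTORC1 under stress, read 2006 to 2840.4 untreated and 2836 to 2975 with Shh and differed by 0.26 and 0.25, neither past the threshold.

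Over both genotypes together, 18 of 28 members passed with Shh, where 47.1% of all genes did: 7 rose (20.9% of all genes) and 11 fell (26.2%). An unadjusted p under 0.05 was found for 21, where 54.4% of all genes had one. Leaving out single arrays gave 12 to 20 calls. Intervals of the difference in each genotype are drawn in the plot of the Shh effect.

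**Figure D3:**
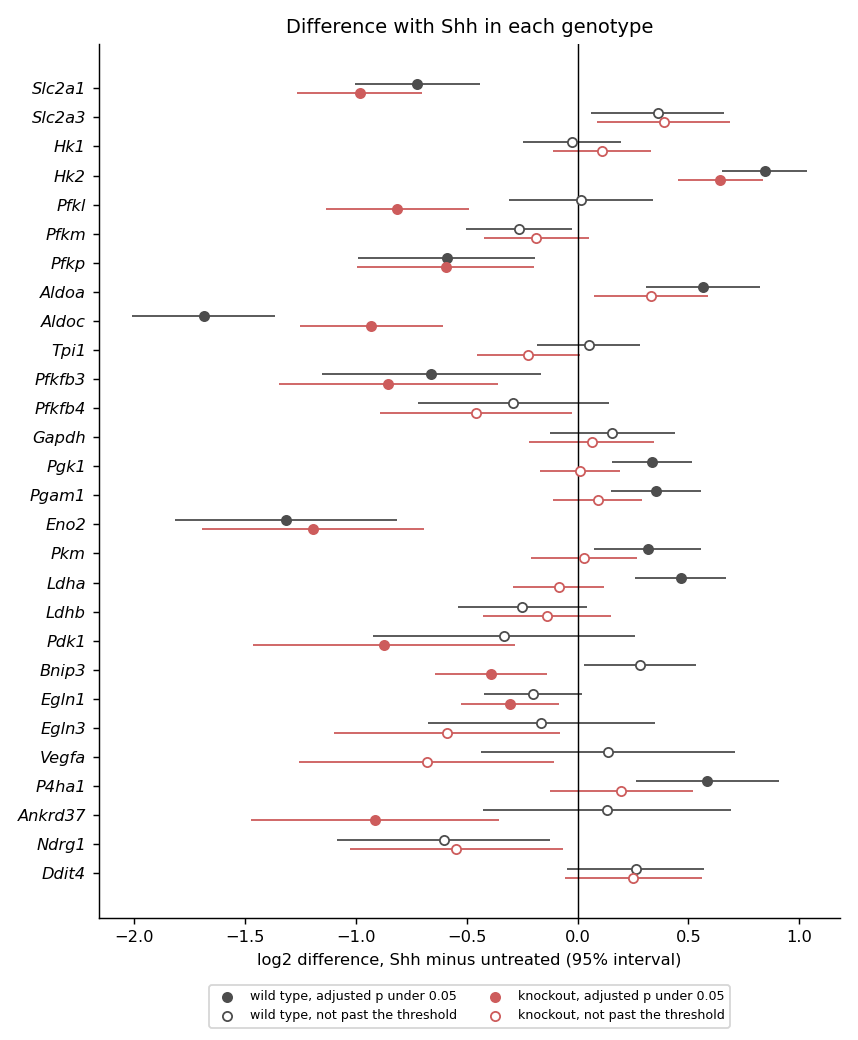
Points give the log2 difference, Shh minus untreated, for each of the 28 tested members in wild type (grey) and knockout (red), and bars its 95% interval; filled points passed an adjusted p of 0.05. Hk2, Slc2a1, Aldoc, Eno2, Pfkp and Pfkfb3 are filled in both genotypes on the same side of 0, while Pgk1, Pgam1, Pkm, Ldha, Aldoa and P4ha1 are filled in wild type and open in knockout, and Pfkl, Pdk1, Bnip3, Egln1 and Ankrd37 the reverse.

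Between the genotypes without Shh, no member passed: 0 of 28, where 0.377% of all tested genes did (limma, 0.324% higher and 0.0526% lower in knockout), and 1 (Ndrg1) had an unadjusted p under 0.05, where 8.68% of all genes had. The differences ran from -0.57 for Ndrg1 (SE 0.19, limma adjusted p = 0.407) to 0.24 for Slc2a1, with a median of 0.00. In untreated cultures the groups of 1 member (Hk2) were apart with knockout higher and those of 1 (Pfkm) with knockout lower, where 7.62% and 5.73% of all genes were.

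With Shh, Bnip3 was the 1 of 28 members that passed, where 0.728% of all genes did (0.614% higher and 0.114% lower in knockout). Bnip3 was 1.6-fold lower in knockout than in wild type (log2 -0.68, SE 0.12, limma adjusted p = 0.0497), on the edge of the threshold. The call held without replicate 3 and was lost without any other single array, with adjusted p-values from 0.0462 to 0.216 and differences from -0.77 to -0.58. Other settings gave adjusted p-values from 0.00968 to 0.218. The running numbers of the arrays alternate between the genotypes, and arrays with consecutive numbers deviated together, so that pairs of them were also fitted as a block. Blocked, the adjusted p of Bnip3 was 0.122 and that of Ankrd37 0.0427 at the same differences, so that the blocked fit called Ankrd37 in place of Bnip3. Ankrd37 was 2.19-fold lower in knockout (log2 -1.13, SE 0.27, limma adjusted p = 0.132 without the block).

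Including Bnip3, 9 of 28 members had an unadjusted p under 0.05 in knockout against wild type with Shh, where 9.76% of all genes had. Besides Bnip3 and Ankrd37, these were Vegfa (-0.94), Pdk1 (-0.85), Pfkl (-0.63), Ldha (-0.40), Tpi1 (-0.36) and Pgk1 (-0.30), with knockout lower, and Aldoc (0.57), with knockout higher, and of the 8 other than Bnip3 none passed (limma adjusted p = 0.132 to 0.316). The dimmer probe set of Aldoc gave 0.04 here. For the change between genotypes in the response to Shh it gave 0.25, against 0.76 from the brightest. With no filter on mean level Pgk1 passed (adjusted p = 0.0329) and Bnip3 did not. In 16 of 28 members both knockout arrays lay below both wild type arrays, where this held for 16.8% of all genes, and in 1 (Aldoc) both lay above, where 22.3% did. This count was chosen after the values were seen. Without replicate 10 it was 24 of 28, where 32.9% of all genes were lower. The median difference over the members was -0.16, against 0.01 over all tested genes, and 22 of 28 were negative. Replicates 7 and 9 carry the wild type side of all these values and 8 and 10 the knockout side.

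**Figure D4:**
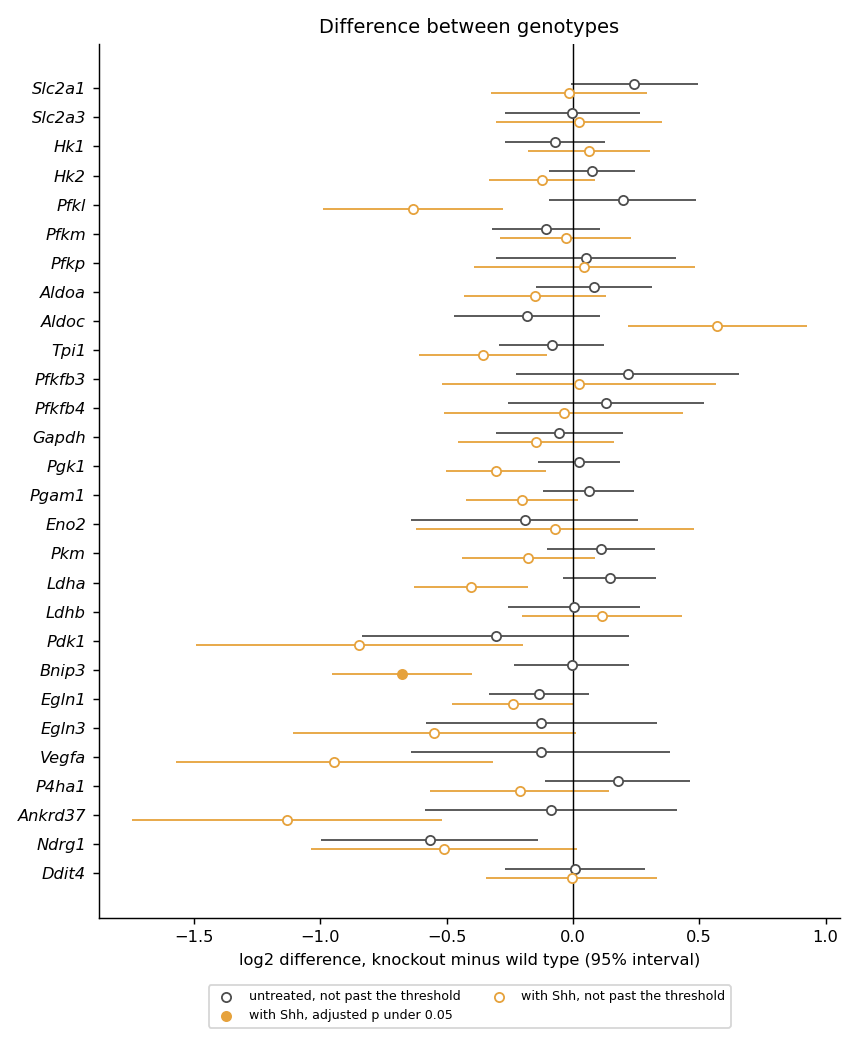
Points give the log2 difference, knockout minus wild type, for each of the 28 tested members without Shh (grey) and with Shh (orange), and bars its 95% interval; the filled point passed an adjusted p of 0.05. Without Shh the points lie between -0.57 and 0.24, and with Shh 22 of 28 lie below 0, of which Bnip3 is filled.

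Markers of other cells also differed between the genotypes with Shh. Astrocyte and Bergmann glia markers were higher in knockout in 10 of 10 by sign and in 2 (Gdf10 and Sparcl1) past the threshold, beside the higher Aldoc. Oligodendrocyte lineage markers were higher past the threshold in 3 of 8, among them Cspg4, which is also the 1 call on the endothelial and pericyte list, where 4 of 8 were higher and 4 lower by sign. Of the interneuron markers 6 of 6 were higher by sign and 1 past the threshold. Microglia and macrophage markers were lower in 9 of 9 by sign and in 1 past the threshold, with sums of 4421 to 4790.0 in wild type and 2685 to 3674 in knockout. Proliferation markers, 0 of 9 past the threshold and 8 of 9 negative, summed to 69063 to 70890.2 in wild type and 60707 to 65682 in knockout. Some lists differed by sign without Shh too, with 0 past the threshold. Untreated, microglia and macrophage markers were lower in knockout in 9 of 9, with sums of 7265 to 10512 in wild type and 5984 to 6794 in knockout. Interneuron markers were higher in 6 of 6, and fibroblast and meningeal markers in 7 of 7. The part of these cells in the differences of the members was not tested.

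The change between genotypes in the response to Shh passed for 0 of 28 members (limma), and 7 (Aldoc, Ankrd37, Bnip3, Ldha, Pfkl, Pgk1 and Vegfa) had an unadjusted p under 0.05, where 4.92% of all genes had. A rise seen past the threshold in wild type and not in knockout is therefore not shown to differ between them. Averaged over both conditions, 0 of 28 members passed between the genotypes (limma), where 1.54% of all genes did (1.22% higher and 0.324% lower in knockout), and 8 had an unadjusted p under 0.05, where 13% of all genes had. With the pairs as a block Ankrd37 passed, at -0.61 (limma adjusted p = 0.0398, and 0.156 without the block).

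Other genes of these pathways were taken as 6 lists, and 0 of their members passed between the genotypes (limma), with or without Shh; at an unadjusted p under 0.05 each list had 0 to 2 members. Their counts with Shh stand against 14% of all genes that rose and 19.8% that fell in wild type, and 11% and 17% in knockout. Of 11 other glycolysis genes, 2 rose and 3 fell with Shh in wild type and 1 rose and 2 fell in knockout; the largest were Hk3, which rose, and Pfkfb2 (-0.91 in wild type) and Eno3 (-0.44 in knockout), which fell. Of 15 genes of pyruvate and lactate handling, 1 rose and 4 fell in wild type and 0 rose and 3 fell in knockout. Slc16a1 (MCT1), the lactate transporter of glia and endothelium, fell by 1.89 and 1.81, from 2704 to 3776 untreated to 846 to 972 with Shh. The kinase Pdk2 fell by 0.91 and 0.74.

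Of 16 HIF subunits and regulators, 1 rose and 4 fell in wild type and 1 rose and 3 fell in knockout. Epas1, the HIF-2 alpha subunit typical of endothelium, fell 15.2-fold and 19.5-fold, from 1222 to 1553 untreated to 85.2 and 100.4 in wild type and 69.2 and 76.6 in knockout with Shh. Vhl fell in both genotypes (-0.37 in wild type and -0.53 in knockout), and Arnt2 fell in wild type (-0.48) with a value of -0.36 in knockout that missed the threshold. Hif1a, the subunit of most tissues, read 4928 to 6205 on all arrays and differed by -0.09 and -0.01, neither past the threshold; its activity is set at the protein level, which arrays do not measure. Of 24 other hypoxia targets, 5 rose and 5 fell in wild type and 1 rose and 4 fell in knockout. Those that rose in wild type were Hmox1 (1.61), Pgf (0.97), Kdm3a (0.56), Higd1a (0.49) and Fam162a (0.42). Angptl4 (-3.25 and -3.55) and Ppp1r3c (-2.60 and -1.53) fell in both genotypes. Rora (-2.06), Bhlhe40 (-1.20) and Hilpda (-0.52) were the other ones that fell in wild type. Ndufa4l2 fell in knockout (-2.46) with a value of -1.29 in wild type that missed the threshold. With Shh, 1 array of Angptl4 in wild type and 1 array of Ndufa4l2 in each genotype lay at the floor, which limits these values.

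Of 9 genes of the pentose phosphate pathway, which branches off after hexokinase, 3 rose and 1 fell in wild type and 1 rose in knockout. Rpe rose by 0.55 and 0.57, and H6pd fell by 1.24 in wild type. Of 16 genes of the tricarboxylic acid cycle, 1 fell in each genotype, the succinate ligase subunit gene Suclg2 (-0.76 and -0.96).

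The remaining marker lists complete this account. With Shh, proliferation markers rose in 7 of 9 tested genes in wild type and 5 of 9 in knockout, beside the rise of Hk2. Granule cell precursor markers rose in 3 of 10 in both. In wild type these were Mycn and the Shh targets Gli1 and Ptch1. By sign, 6 of 10 precursor markers were negative in wild type and 5 of 10 in knockout. The part of these cells in the rise of Hk2 was not tested. Of 9 microglia and macrophage markers, 5 fell in both genotypes, while Ptprc rose in both (0.98 and 1.12) and Cd68 rose in knockout (0.75). The 1 tested erythroid marker fell in both. The plot of summed marker levels gives the value of each list on every array.

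**Figure D5:**
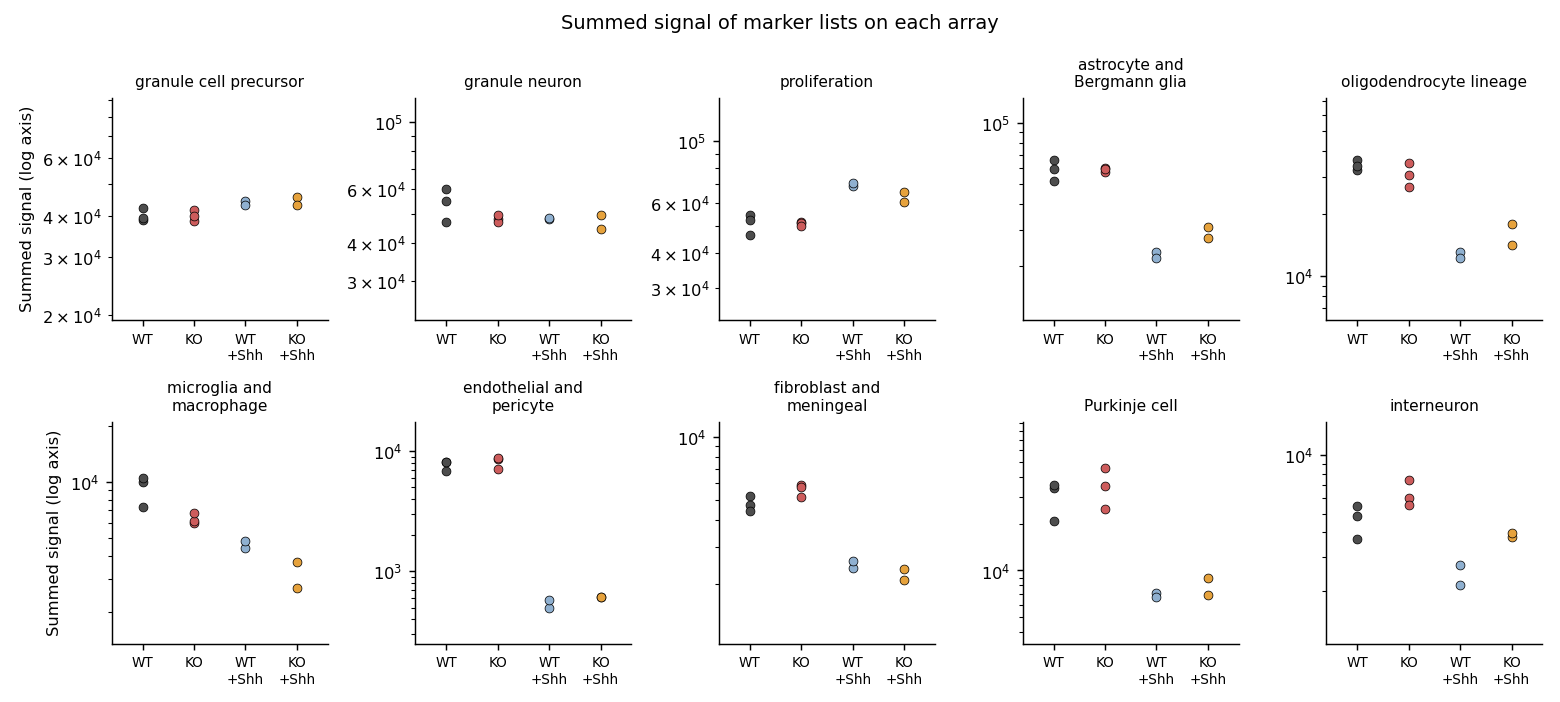
Each panel plots the summed signal of the markers of 1 cell type or state (log axis) on every array, for untreated wild type (WT), untreated knockout (KO) and the Shh groups. Endothelial and pericyte markers fall from between 6891 and 8801 to between 500.2 and 612, astrocyte, oligodendrocyte and Purkinje cell markers also fall, proliferation markers rise, and granule cell precursor markers lie between 38522 and 45762.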

How the data were processed

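RNA of the 10 cultures was hybridised to Affymetrix Mouse430_2 arrays. The deposited values are signal intensity that the authors made with MAS5 (GCOS 1.2, per the submitters' processing notes), with a 2% trimmed mean of 500 on each array and no detection calls. Of 45101 probe sets, 61 controls were left out. Of the others, 34948 named 1 gene, 932 named several and 9160 none; names were checked against RefSeq for GRCm38.p6 by Entrez identifier. Signals under the 25th percentile (20.9) were raised to it before log2, each gene was represented by its brightest probe set, and genes with a mean log2 of at least 6.25 (signal 76.1) were tested. All arrays entered 1 fit of group means with limma 3.58.1 in R 4.3.3 (6 residual and 3.11 prior degrees of freedom), for 7 two-sided comparisons, with Benjamini-Hochberg adjustment over 11405 genes and a threshold of 0.05. SE and 95% intervals come from this fit. The number of arrays limits the precision.

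Members called in any comparison are given on every array, except Pfkm and Pfkfb4, which are given by range. Of the members not called, Vegfa and Slc16a3 are given on every array and the rest mostly by range. From each of the 6 other pathway lists, up to the 2 largest calls of a comparison are named. Of the other hypoxia targets, all those called for Shh in wild type are named. The members and all 27 lists (10 roles of members, 6 other pathway lists and 11 marker lists) were chosen with earlier results of these data known. Alternatives covered normalization, floor, pseudocount, filter, probe sets, variance prior, groups in the fit, pairs and single arrays. No pairs are named in the labels. Consecutive numbers correlated in their deviations from group means at 0.12 to 0.278 (3 untreated pairs), against -0.265 to 0.0529 for other untreated pairs. With 2 Shh arrays per genotype, centring leaves 1 value, 0.16 for consecutive numbers and -0.16 for the others. They were fitted as a block for the genotype effects and, at a consensus correlation of 0.289, for the Shh effects.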

Additional observations from a re-analysis of the deposited data

How the results depend on the processing

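Of 42 calls of members over all comparisons, 22 held without any single array, 20 under every other alternative and 19 under all of them, and 0 values reversed. Hk2, Slc2a1, Aldoc and Eno2 in both genotypes and Aldoa and Ldha in wild type held throughout. In the genotype comparison with Shh, the count of 1 member became 0 with quantile normalization, a floor at the 10th percentile, the mean of all probe sets, only the 2 groups compared or without replicates 1 and 6 together, and lay between 0 and 1 without single arrays. Leaving out single arrays gave 7 to 11 members for Shh in wild type (main count 12, and 7 without replicate 9) and 6 to 12 in knockout (main count 11, with 6 without replicate 4 or 8 and 7 without replicate 10). The genotype average of 0 members became 1 with the mean of all probe sets (Ndrg1), limma-trend (Bnip3) and the replicate block (Ankrd37). With the pairs as a block the counts were otherwise 0 for genotype without Shh, 1 with Shh, 12 and 11 for Shh in wild type and knockout, 0 for the interaction and 14 of 18 for the Shh average, which lost Pfkm, Pfkfb4, Pgk1 and Ldha (adjusted p = 0.0564 to 0.098). The count of members higher without overlap in knockout with Shh, 1, became 2 with quantile normalization (20.5% of all genes) and ran from 1 to 9 without single Shh arrays, where 36.4% to 39.2% of all genes were higher (9 and 39.2% without replicate 8). That of members lower, 16, ran from 15 to 18 under other settings (13.9% to 21.4% of all genes) and from 16 to 24 without single Shh arrays (30.1% to 33.4%). The cause of these shifts was not tested. With 2 arrays per Shh group and dim members near the floor, small differences were not detectable.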
